A study of Drosophila melanogaster with 8 samples.

Results

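Transcripts of 40 enzymes of sugar breakdown, sugar storage and the citric acid cycle were followed in whole adult females of Drosophila melanogaster. The genes were chosen by CG number from a list of the pathway, with no cut-off on their measured values but with earlier results of these data known. All 40 had a row among the 12082 genes of the deposited table. They comprise 14 genes of glycolysis and its side branches to lactate and glycerol phosphate, 2 of the oxidative pentose phosphate pathway, 7 of glycogen and trehalose, 2 of gluconeogenesis, 3 of pyruvate entry into mitochondria, 8 of the citric acid cycle and 4 of related cytosolic and malic enzymes.

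RNA of polyA type was sequenced from whole females of 2 genotypes, with 4 libraries of each. Controls carried btl>DHR78, a transgene that expresses the nuclear receptor gene Hr78 (DHR78) through the driver of btl, a gene known for its expression in the trachea. Mutants carried btl>DHR78 together with the allele pair DHR78[1]/[3] at the receptor's own locus, so that both genotypes share the tracheal transgene and differ in the receptor elsewhere in the body. All females were 1 week old and ate food with 8% yeast and 9% sugar, and each library pooled 2 collections of 12 females. The comparison asks which adult transcripts depend on the receptor outside the tissue in which the transgene supplies it.

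Glycolysis turns glucose into pyruvate, which enters mitochondria as acetyl-CoA and is oxidised in the citric acid cycle. Flies carry trehalose as their main blood sugar, made largely in the fat body, and store glycogen in fat body and muscle. Sugar that leaves glycolysis at its first intermediate can instead enter the pentose phosphate pathway, which makes NADPH for lipid synthesis and ribose for nucleotides.

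Libraries held 19544675 to 33054191 counts, and the 40 genes together took 1.49% to 1.64% of them. Levels are given in CPM (counts scaled to a common library size by the TMM method), and a single member's count in a library ranged from 241 to 46665. The coefficient of variation over mutants was as low as 0.696% (Hex-A), so counting error was not small beside the spread between libraries for every member. Hr78 itself was at 123 ± 4.22 CPM in controls and 71.6 ± 1.71 CPM in mutants (mean ± SD, 4 libraries of each genotype), although reads of the transgene and of the chromosomal gene were not separated. Yolk protein transcripts were abundant in every library (22063 to 34564 CPM for the sum of Yp1, Yp2 and Yp3). Mutant replicate 2 stood apart, since 10 testis markers summed to 57.9 CPM there against 0.948 to 1.61 CPM in the other 7 libraries, and 6 male accessory gland markers to 111 CPM against 0.118 to 0.880 CPM. Counts of calls without that library are given below for all members, glycolysis, storage, the citric acid cycle and the wider list of pathway genes. Because each library was made from whole animals, fewer cells of a type and less RNA per cell cannot be told apart. The labels call the 4 samples of a genotype biological replicates without saying whether they came from separate cultures, so the p-values measure the spread between these samples.

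Small shifts in both directions were spread over the pathway. Of the 40 genes, all of which passed the filter on low counts, 10 were higher and 5 lower in the mutant by the quasi-likelihood test of edgeR, with p-values adjusted over 10525 genes (Benjamini-Hochberg) and a threshold of 0.05, and 25 did not pass. Of all genes tested, 19.6% passed in either direction, 8.46% as higher and 11.1% as lower. The members' 25% higher lies above that background, and their 12.5% lower lies near it. Restricted to the 7168 genes whose mean level reached that of the least abundant member (15.1 CPM), the background was 20.8% in either direction, 8.47% higher and 12.3% lower. With upper quartile scaling 11 members were higher and 3 lower, where 14.2% of all genes were higher and 8.29% lower. The absolute log2 fold change had a median of 0.12 over the members and of 0.12 over all genes tested, and 1 member, Pepck1, changed by at least 1.5-fold. The genotypes did not overlap for 13 of the 40 (32.5%), against 25.0% of all genes tested. The median signed log2 fold change was 0.02 for the members and 0.01 for all genes tested.

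**Figure D1:**
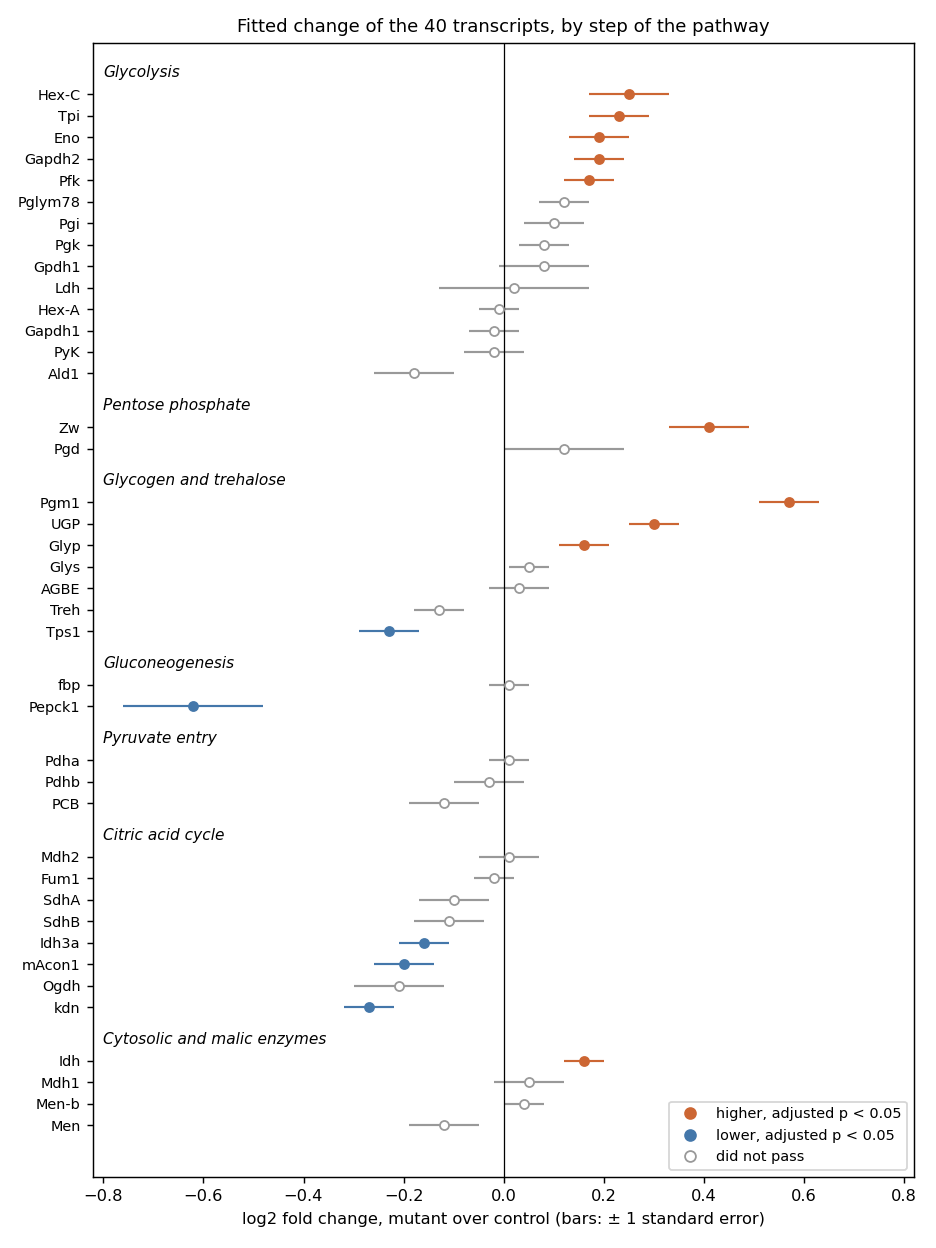
Log2 fold change of mutant over control for each of the 40 transcripts, grouped by step of the pathway and with bars of 1 standard error on each side. Filled points passed an adjusted p of 0.05; Pgm1 (0.57) lies farthest to the right and Pepck1 (-0.62) farthest to the left.

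The number of calls changed when single libraries were left out, for the members and for all genes. With all libraries, 890 of all genes were higher and 1173 lower. Without mutant replicate 2, 6 members were higher and 3 lower, and of all genes 716 and 986. Without control replicate 1, 2, 3 or 4 the members higher numbered 11, 5, 3 and 5. All genes higher numbered 760, 708, 634 and 650 there. Without mutant replicate 1, 3 or 4 the members higher numbered 7, and all genes higher 604 to 705. The members lower numbered 3 without control replicate 1, control replicate 4 or any 1 of the 4 mutant replicates. In those fits 872 to 986 of all genes were lower. Zw, UGP, Pgm1 and kdn passed in all 15 alternatives, and Tps1 in all but that without both control replicate 1 and mutant replicate 1 (adjusted p 0.0582, edgeR). For each of these 5 genes the genotypes did not overlap, as for 25.0% of all genes tested. The two-sided exact permutation test on log2 CPM gave p = 0.0286, the smallest that 4 libraries against 4 allow. Any gene without overlap has that p, so it adds nothing to the lack of overlap.

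**Figure D2:**
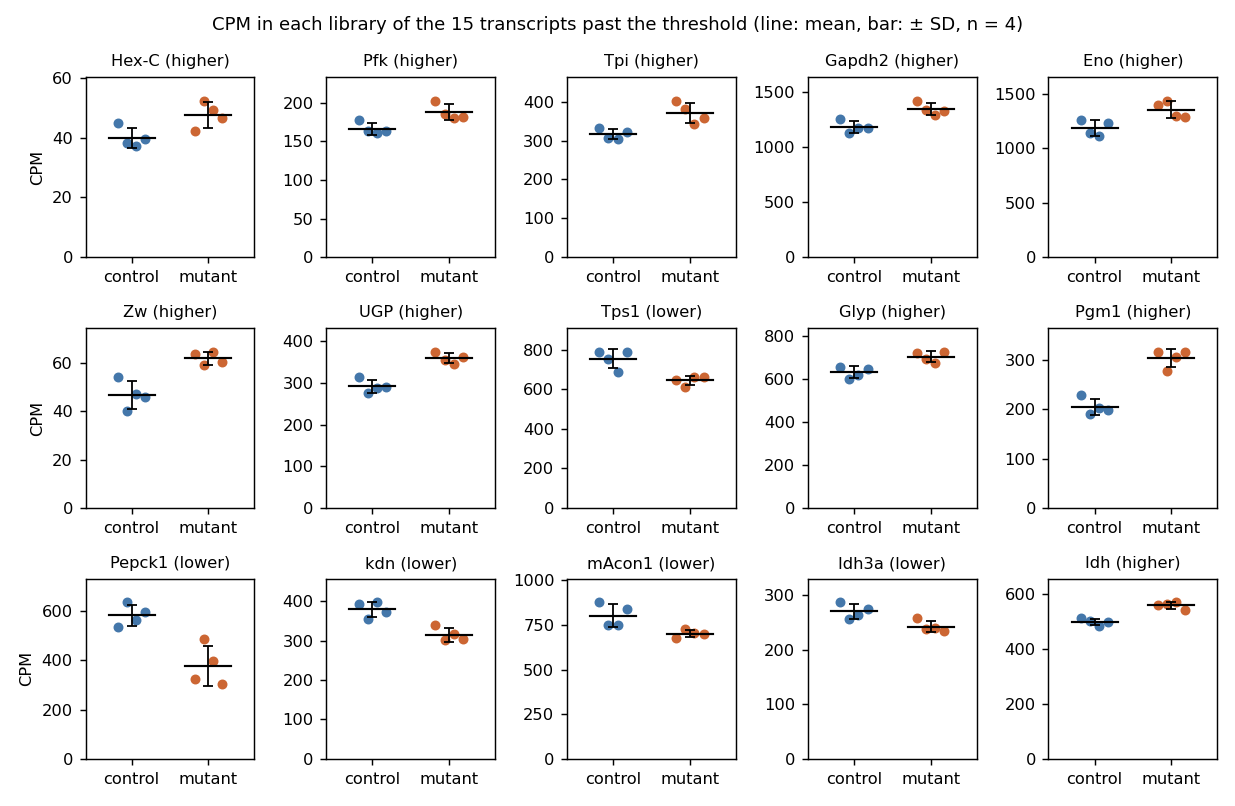
CPM in each library for the 15 transcripts past the threshold, with the mean as a line and the SD of 4 libraries as a bar. In 13 of the 15 panels the genotypes do not overlap, the exceptions being Hex-C and Idh3a.

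Of the 7 genes of glycogen and trehalose, 3 rose, 1 fell and 3 did not pass, or 42.9% higher and 14.3% lower against 8.46% and 11.1% of all genes. Without mutant replicate 2, 2 were higher and 1 lower. Of all genes, 716 were then higher and 986 lower, against 890 and 1173 with all libraries. Pgm1 (CG5165) encodes phosphoglucomutase, which links the glucose phosphate of glycogen to that of glycolysis. It was at 229, 190.0, 202 and 198 CPM in the controls and 317, 278, 305 and 315 CPM in the mutants. Every mutant library lay well above every control library. The gene rose to 148% of the control level (log2 fold change 0.57, standard error 0.06, adjusted p 0.000287, edgeR).

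UGP (CG4347) encodes the enzyme that makes UDP-glucose, the sugar donor for both glycogen and trehalose. Control libraries held 314, 276, 287 and 289 CPM of UGP and mutant libraries 375, 355, 346 and 362 CPM. The lowest mutant was above the highest control, control replicate 1. UGP rose by 0.30 on the log2 scale (standard error 0.05, adjusted p 0.00215, edgeR).

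Tps1 (CG4104), the trehalose phosphate synthase gene that uses this UDP-glucose, moved the other way. Its levels were 791, 754, 686 and 790.1 CPM in the controls and 647, 609.6, 659.7 and 662 CPM in the mutants, with no overlap. Tps1 fell to 85.3% of the control level (log2 fold change -0.23, standard error 0.06, adjusted p 0.0159, edgeR). The ratio of Tps1 to UGP within a library, which does not depend on scaling between libraries, was 2.39 to 2.74 in controls and 1.72 to 1.91 in mutants. Treh (CG9364), which encodes the trehalase that splits trehalose, was at 287 ± 19.0 CPM in controls and 262 ± 5.74 CPM in mutants and did not pass (adjusted p 0.103, edgeR), although it did without control replicate 4 (0.0472). The ratio of Tps1 to Treh overlapped between the genotypes.

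Glyp (CG7254) encodes glycogen phosphorylase, which releases glucose phosphate from glycogen. It was at 659, 599, 619.9 and 649.6 CPM in controls and 722, 694, 674 and 729 CPM in mutants, so that the genotypes lay close together without overlap. Glyp rose by 0.16 on the log2 scale (standard error 0.05, adjusted p 0.0410, edgeR). The call was lost without control replicate 2, 3 or 4 or mutant replicate 1, 2 or 4 (adjusted p 0.0625 to 0.103). Glycogen synthase, Glys (CG6904), was at 337 ± 9.13 CPM in controls and 349 ± 13.9 CPM in mutants, and the branching enzyme gene AGBE (CG33138) at 127 ± 12.0 and 131 ± 5.98 CPM. Neither passed (adjusted p 0.461 and 0.750, edgeR). The ratio of Glyp to Glys was 1.78 to 1.97 in controls and 1.99 to 2.06 in mutants.

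In glycolysis 5 of 14 genes rose and none fell, which is 35.7% against the 8.46% of all genes called higher. That count changed when 1 library was left out, while all genes called higher numbered 604 to 760, against 890 with all libraries. Without control replicate 3 none of the 14 was higher and 1, Ald1, was lower. Without control replicate 2 or 4 only Tpi was higher, and without mutant replicate 2 only Tpi and Gapdh2 were. Without control replicate 1 the count rose to 6, with Pgi added, and it was also 6 with upper quartile scaling. Without mutant replicate 1, 3 or 4 it was 3. The part of the smaller number of libraries in these losses was not tested. At the first step, Hex-A (CG3001) and Hex-C (CG8094) encode hexokinases. Hex-C was at 44.8, 38.3, 37.1 and 39.5 CPM in controls and 42.3, 52.4, 49.1 and 46.6 CPM in mutants, and mutant replicate 1 fell below control replicate 1. It rose by 0.25 on the log2 scale (standard error 0.08, adjusted p 0.0411, edgeR). That call was lost without control replicate 2, 3 or 4 or mutant replicate 2, 3 or 4 (0.0718 to 0.110) and with an offset for gene length (0.129). Hex-A was level, at 211 ± 9.27 CPM in controls and 208 ± 1.45 CPM in mutants (log2 fold change -0.01, adjusted p 0.844, edgeR). Per kilobase of exon Hex-A was the more abundant, at 50.9 CPM per kilobase in controls against 26.7 for Hex-C.

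Pfk (CG4001), which encodes phosphofructokinase at the committed step, was at 178, 163, 161 and 164 CPM in controls and 203, 186, 180.4 and 182 CPM in mutants. The highest control, replicate 1, came close to the lowest mutant without reaching it. Pfk rose by 0.17 on the log2 scale (standard error 0.05, adjusted p 0.0377, edgeR), and the call was lost without control replicate 2, 3 or 4 or mutant replicate 1, 2 or 4 (0.0520 to 0.0988). Pgi (CG8251), the isomerase gene just before it, was at 359.6 ± 30.8 CPM in controls and 386 ± 16 CPM in mutants. It did not pass (adjusted p 0.271, edgeR), although it did without control replicate 1 (0.0420). Among libraries the ratio of Pgm1 to Pgi was 0.552 to 0.6 in controls and 0.716 to 0.840 in mutants.

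Tpi (CG2171) encodes triose phosphate isomerase, which interconverts the products of the split sugar. Control levels were 333, 306, 305 and 322 CPM and mutant levels 403, 382, 344 and 358 CPM, with no overlap. Tpi rose by 0.23 on the log2 scale (standard error 0.06, adjusted p 0.0167, edgeR), and only leaving out control replicate 3 among the 15 alternatives ended the call (0.0507). The aldolase gene Ald1 (CG6058), which makes its substrate, was at 813 ± 97.6 CPM in controls and 720.1 ± 41.9 CPM in mutants. Ald1 did not pass (log2 fold change -0.18, adjusted p 0.161, edgeR), but without control replicate 3 its adjusted p was 0.0397.

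Gapdh2 (CG8893) and Gapdh1 (CG12055) encode glyceraldehyde phosphate dehydrogenase, and they are close copies between which reads may be split uncertainly. Gapdh2 was at 1257, 1125, 1171 and 1172 CPM in controls and 1424, 1342, 1296 and 1333 CPM in mutants, while Gapdh1 was at 639 ± 40.7 and 629 ± 23.7 CPM. Gapdh2 rose by 0.19 on the log2 scale (standard error 0.05, adjusted p 0.0239, edgeR), whereas Gapdh1 did not pass (log2 fold change -0.02, adjusted p 0.799). The ratio of Gapdh2 to Gapdh1 was 1.81 to 1.93 in the controls and 2.13 to 2.15 in the mutants, with an SD of 0.0102 over the 4 mutant libraries. The call of Gapdh2 was lost without control replicate 2, 3 or 4 (0.0580 to 0.0623) and with the length offset (0.0599).

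Eno (CG17654), the enolase gene, was at 1262, 1137, 1112 and 1231 CPM in controls and 1397, 1436, 1294 and 1287 CPM in mutants. Eno rose by 0.19 on the log2 scale (standard error 0.06, adjusted p 0.0426, edgeR). The genotypes did not overlap, but the call was lost without control replicate 2, 3 or 4 or mutant replicate 1, 2 or 3 (0.0600 to 0.112). Its neighbours in the pathway, the kinase gene Pgk (CG3127), the mutase gene Pglym78 (CG1721) and the pyruvate kinase gene PyK (CG7070), had log2 fold changes of 0.08, 0.12 and -0.02 and did not pass (adjusted p 0.223, 0.119 and 0.822, edgeR). Pglym78 did pass with upper quartile scaling (0.0335) and with the replicate block (0.0285).

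At the outlets of glycolysis neither branch passed. Ldh (CG10160), the lactate dehydrogenase gene, was the least abundant member at 14.9 ± 3.28 CPM in controls and 15.2 ± 1.6 CPM in mutants. Its control libraries fell into a higher pair (replicates 1 and 2, 17.9 and 17.6 CPM) and a lower pair (replicates 3 and 4, 11.8 and 12.4 CPM), and its standard error of 0.15 was the largest of the 40, so a moderate change would not have been detectable. Gpdh1 (CG9042), whose enzyme feeds the glycerol phosphate shuttle and lipid synthesis, was at 504 ± 54.8 and 531 ± 59.3 CPM (adjusted p 0.608, edgeR).

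In the oxidative pentose phosphate pathway, Zw (CG12529) rose and Pgd (CG3724) did not pass. Zw encodes glucose 6-phosphate dehydrogenase, the entry enzyme. It was at 54.1, 40, 47.1 and 45.8 CPM in controls and 63.9, 59.1, 64.8 and 60.3 CPM in mutants, all mutants above all controls. Its log2 fold change of 0.41 (standard error 0.08, adjusted p 0.00579, edgeR) corresponds to 133% of the control level. Pgd, the gene of the next dehydrogenase, was at 147 ± 25.6 and 159 ± 13.8 CPM (log2 fold change 0.12, adjusted p 0.525, edgeR). The ratio of Zw to Pgd was 0.298 to 0.333 in controls and 0.355 to 0.420 in mutants.

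In gluconeogenesis Pepck1 (CG17725) had the largest fold change of the 40 genes. Its enzyme, phosphoenolpyruvate carboxykinase, starts the route from oxaloacetate back to sugar. Pepck1 was at 535, 634, 564 and 594 CPM in controls and 325, 485, 396 and 304 CPM in mutants. All mutants were below all controls, but they spread widely, and mutant replicate 2 was the highest of them. Pepck1 fell to 64.9% of the control level (log2 fold change -0.62, standard error 0.14, adjusted p 0.0206, edgeR), and it fell by 0.77 on the log2 scale without mutant replicate 2. The call was just lost without control replicate 2 or 4 or mutant replicate 1 (0.0507 to 0.0536). The bisphosphatase gene fbp (CG31692), at the other end of the route, was level at 76.5 ± 2.90 and 77.2 ± 2.03 CPM (adjusted p 0.85, edgeR).

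None of the 3 genes of pyruvate entry passed. Pdha (CG7010) and Pdhb (CG11876), which encode the subunits of the first enzyme of the pyruvate dehydrogenase complex, were at 346 ± 7.80 and 348 ± 7.60 CPM and at 161 ± 12.9 and 158 ± 10.7 CPM in controls and mutants. The log2 fold change of Pdha was 0.01 with a standard error of 0.04 (adjusted p 0.930, edgeR). PCB (CG1516), the pyruvate carboxylase gene, was at 382 ± 36.2 and 352 ± 16.8 CPM (adjusted p 0.247, edgeR).

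In the citric acid cycle 3 of 8 genes fell and none rose, which is 37.5% against the 11.1% of all genes called lower. Only kdn was lower with upper quartile scaling or without the filter on low counts. The same held without control replicate 1, control replicate 4, mutant replicate 2, mutant replicate 3 or mutant replicate 4. That is 12.5% of the 8 genes, near the 11.1% of the main fit. With upper quartile scaling 8.29% of all genes were lower. Without the filter 1027 genes were lower, and with 1 library left out 872 to 986, against 1173 in the main fit. The 3 genes called with all libraries encode enzymes of the first steps of the cycle. kdn (CG3861), the citrate synthase gene, was at 394, 355, 397 and 372 CPM in controls and 339, 301, 316 and 304 CPM in mutants, with no overlap. It fell to 83.0% of the control level (log2 fold change -0.27, standard error 0.05, adjusted p 0.00616, edgeR). mAcon1 (CG9244), the mitochondrial aconitase gene, was at 876, 750.4, 747 and 837 CPM in controls and 674, 726, 707 and 698 CPM in mutants. It fell by 0.20 on the log2 scale (standard error 0.06, adjusted p 0.0396, edgeR). That call was lost without control replicate 1 or 4 or any 1 mutant replicate (0.0534 to 0.102), with upper quartile scaling (0.0813) and with the replicate block (0.0503).

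Idh3a (CG12233) encodes the catalytic subunit of the NAD-dependent isocitrate dehydrogenase. It was at 287, 256, 264 and 275 CPM in controls and 258, 238, 240.0 and 234 CPM in mutants, and mutant replicate 1 reached the range of the controls. Idh3a fell by 0.16 on the log2 scale (standard error 0.05, adjusted p 0.0473, edgeR), and the call was lost without control replicate 1, 3 or 4 or mutant replicate 2, 3 or 4 (0.0713 to 0.115) and with upper quartile scaling (0.122). Genes of its partner subunits, Idh3b (CG6439) and Idh3g (CG5028), did not pass, with log2 fold changes of -0.01 and 0.00 (adjusted p 0.918 and 0.987, edgeR). The ratio of Idh3a to Idh3b was 1.2 to 1.24 in controls and 1.07 to 1.14 in mutants.

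Of the later steps none passed. Ogdh (CG11661), the oxoglutarate dehydrogenase gene, was at 458 ± 62.0 CPM in controls and 395 ± 20.7 CPM in mutants (log2 fold change -0.21, standard error 0.09, adjusted p 0.113, edgeR). Its control libraries held 538, 414, 403 and 475 CPM. SdhA (CG17246) and SdhB (CG3283), for subunits of succinate dehydrogenase, had log2 fold changes of -0.10 and -0.11. The fumarase gene Fum1 (CG4094) and the mitochondrial malate dehydrogenase gene Mdh2 (CG7998) had log2 fold changes of -0.02 and 0.01. Their adjusted p lay at 0.335, 0.311, 0.791 and 0.931 (edgeR). The ratio of kdn to Mdh2, whose product feeds citrate synthase, was 0.838 to 0.909 in controls and 0.693 to 0.748 in mutants.

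Of the 4 cytosolic and malic enzymes, which move reducing power between compartments or make NADPH, 1 rose, which is 25% against 8.46% of all genes and a single gene. Idh (CG7176), the gene of the NADP-dependent isocitrate dehydrogenase, was at 513, 503, 485 and 499.8 CPM in controls and 561, 564, 571 and 544 CPM in mutants, with no overlap. It rose by 0.16 on the log2 scale (standard error 0.04, adjusted p 0.0172, edgeR). The call was lost without control replicate 3 (0.0504) or mutant replicate 3 (0.0534). The malic enzyme genes Men (CG10120) and Men-b (CG5889) were at 439 ± 38.7 and 405 ± 24.1 CPM and at 137 ± 4.52 and 141 ± 1.16 CPM, and the cytosolic malate dehydrogenase gene Mdh1 (CG5362) at 407 ± 33.4 and 423 ± 28.5 CPM. None of these passed (adjusted p 0.243, 0.458 and 0.605, edgeR). Per kilobase of exon, Men stood at 143 and Men-b at 40.5 CPM per kilobase in controls.

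**Figure D3:**
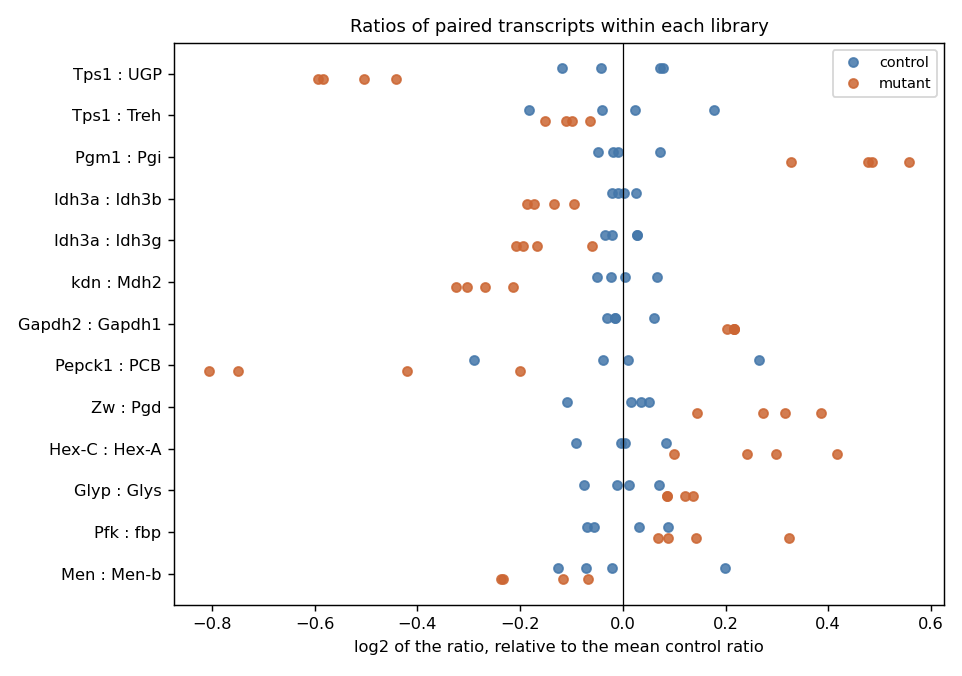
Log2 of the ratio of CPM of 13 pairs of transcripts in each library, relative to the mean control ratio, with controls in blue and mutants in orange. Mutant libraries lie apart from controls for 9 pairs, among them Tps1 to UGP (lower in mutants) and Gapdh2 to Gapdh1 (higher).

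The 13 pairs of neighbouring or alternative enzymes were chosen after the values had been seen, so their ratios are a description without a test. In every mutant library 5 ratios were above and 4 below all controls, and 4 overlapped. The overlapping ratios were those of Tps1 to Treh, Pepck1 to PCB, Pfk to fbp and Men to Men-b.

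A wider list of genes of the same pathways, drawn from general knowledge, held 67 genes with rows, of which 42 passed the filter on low counts. Of these 42, 2 rose and 1 fell, or 7.14% against the 19.6% of all genes. Without mutant replicate 2 they were also 2 and 1. With the replicate block 5 were higher and 3 lower, or 19.0% of the 42 against 22.9% of all genes, and 3 were lower with the length offset or without mutant replicate 1. Taldo (CG2827), the transaldolase gene of the non-oxidative pentose phosphate pathway, was at 177, 158, 164 and 165 CPM in controls and 244, 216, 217 and 224 CPM in mutants. It rose by 0.44 on the log2 scale (standard error 0.05, adjusted p 0.000400, edgeR), all mutants above all controls. Pfrx (CG3400), the gene of the bifunctional enzyme that makes and breaks a sugar bisphosphate activator of phosphofructokinase, was at 185, 155, 155 and 169 CPM in controls and 136, 129, 126 and 114 CPM in mutants. It fell by 0.40 on the log2 scale (standard error 0.07, adjusted p 0.00347, edgeR), also with no overlap. CG5171, which the list holds with the storage genes, rose from 31.9 ± 1.62 to 40.7 ± 2.29 CPM (log2 fold change 0.35, adjusted p 0.00219, edgeR). These 3 passed in all 15 alternatives.

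Among the regulators in that list none passed. The nuclear receptor gene ERR (CG7404), known in flies for driving glycolytic genes, was at 41.9 ± 1.02 CPM in controls and 39.7 ± 2.21 CPM in mutants (adjusted p 0.322, edgeR). The sugar-responsive factor gene sug (CG3850) was at 69.2 ± 9.61 and 51.1 ± 9.42 CPM (log2 fold change -0.44, adjusted p 0.0750, edgeR), with overlap between the genotypes. The succinyl-CoA ligase subunit genes that reached the filter (Scsalpha1, ScsbetaA and ScsbetaG), the pyruvate carrier gene Mpc1, and Pdk and Pdp, for the kinase and phosphatase of pyruvate dehydrogenase, did not pass either (adjusted p 0.229 to 0.935, edgeR).

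The other 25 genes of the list did not reach the filter on low counts, and all 25 had their highest level in mutant replicate 2. With 2 further genes that passed the filter, 27 had a level in that library more than 3 times that of the next library. There they stood at 0.367 to 14.3 CPM, against at most 1.40 CPM elsewhere. They include the testis hexokinase genes Hex-t1 and Hex-t2 (0.513 and 4.07 CPM), the second aldolase gene Ald2 (2.38 CPM), the mutase gene Pglym87 (3.89 CPM) and the aconitase gene mAcon2 (3.19 CPM). Over all genes of the table, 29 had no count in mutant replicate 2, against 572 to 731 in each of the other libraries. The share of all genes that stood out there by this margin is not given. The testis and accessory gland markers were high in the same library, as given above, and their part in the members' values was not tested.

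**Figure D4:**
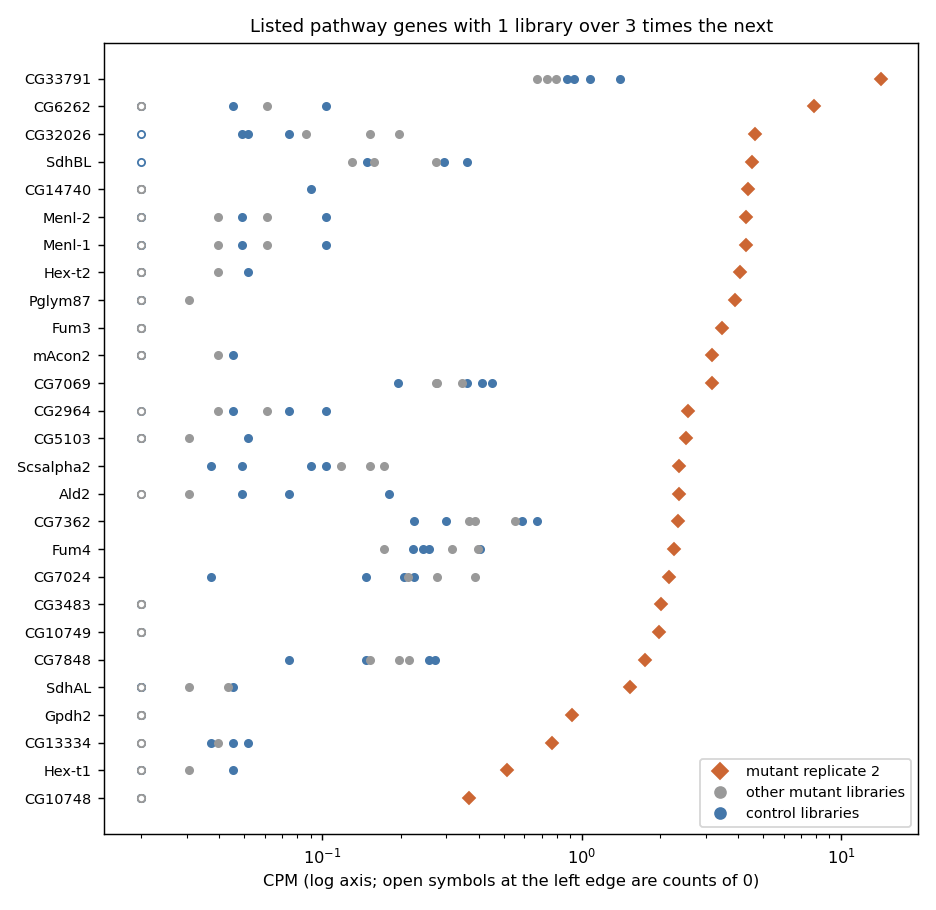
CPM on a log axis in each library for the 27 listed pathway genes with 1 library over 3 times the next. In each row mutant replicate 2 (diamond, 0.367 to 14.3 CPM) lies to the right of the other 7 libraries, many of which are at a count of 0 (open symbols).

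The 40 genes also varied together among libraries of 1 genotype. In control replicate 1, 35 of the 40 were at the highest level of the 4 controls, where 30.4% of all tested genes were, and the median deviation from the control mean was 0.11 on the log2 scale over the members and 0.01 over all genes tested. Mutant replicate 1 was the highest mutant for 26 of the 40, where it was for 30.3% of all tested genes. The median deviation there was 0.06 over the members and 0.01 over all genes tested. Without both of these libraries, an alternative added after the data were seen, 8 members were higher and 2 lower (edgeR). The 2 members that were lower there were kdn and Idh3a. Of all genes, 623 were then higher and 786 lower, against 890 and 1173 with all libraries. The median coefficient of variation was 6.58% over controls and 4.67% over mutants.

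**Figure D5:**
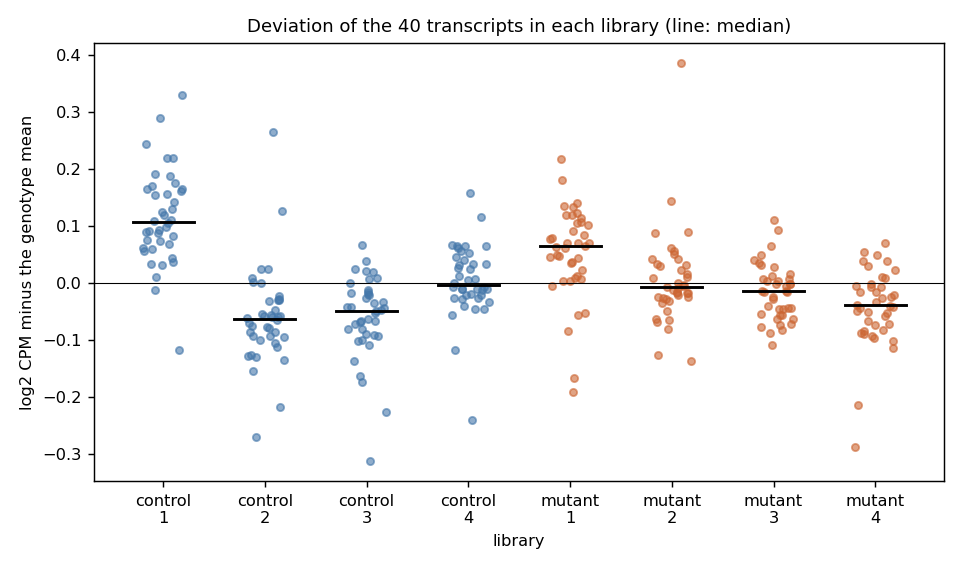
Deviation of log2 CPM from the genotype mean for the 40 transcripts in each library, with the median as a line. Control replicate 1 (median 0.11) and mutant replicate 1 (median 0.06) lie above the other libraries of their genotype.

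Summed by step, the groups overlapped between the genotypes except for gluconeogenesis. The 14 glycolytic genes summed to 6400.4 to 7337 CPM in controls and 6886 to 7603 CPM in mutants, and the 8 citric acid cycle genes to 2989 to 3498 and 2788 to 2996 CPM. The 2 gluconeogenic genes summed to 612 to 712 CPM in controls and 383 to 562 CPM in mutants, which follows Pepck1. Per kilobase of exon the most abundant members in controls were Gapdh2 (819 CPM per kilobase), Gapdh1 (432), PyK (334), Mdh2 (328) and Eno (319), and the least abundant Ldh (7.70), Zw (18.6), Hex-C (26.7) and Pfk (38.1). These levels divide by the union of annotated exons, which lowers genes with long alternative exons.

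Markers of tissues that express these enzymes moved in part with genotype. Of all genes tested, 8.46% were higher and 11.1% lower. Of 12 muscle markers 3 rose and 1 fell, and their sum was 2263 to 2727 CPM in controls and 2389.6 to 2635 CPM in mutants. Of 5 fat body markers 1 fell, apolpp, and their sum was 2155 to 2371 CPM in controls and 1801 to 1954 CPM in mutants. That sum is mostly apolpp, which averaged 1847 CPM in controls and 1482 CPM in mutants. Apoltp, fit and bmm did not pass, at 83.6%, 75.6% and 98.8% of the control level, and Lsp2 was not tested. For Apoltp and fit, as for apolpp, every mutant was below every control, as for 13.2% of all genes tested. Of 7 midgut markers 4 fell, and their sum was 1877 to 3163 CPM in controls and 1161 to 1626 CPM in mutants. The largest part was alphaTry, at 1551 and 708 CPM on average. betaTry, Amy-p and Npc1b did not pass, at 132%, 102% and 55.6% of the control level. None of 6 ovary markers passed, and their sum was 2019 to 2288 CPM and 2116 to 2247 CPM, while of 5 neuronal markers 1 fell (sums 90.1 to 99.8 and 83.7 to 105 CPM). The part of these tissues in the members' changes was not tested.

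By chromosome arm, 3 of the 5 members on 3L, the arm that carries Hr78, were higher (Pgm1, UGP and Idh) and none lower. On that arm 9.34% of all tested genes were higher. Members called on the other arms were Glyp and Eno (higher) and Tps1 and mAcon1 (lower) on 2L, Hex-C and Pfk (higher) and Pepck1 (lower) on 2R, Tpi (higher) on 3R, and Gapdh2 and Zw (higher) and kdn and Idh3a (lower) on X. Exons of 18 of the 40 members overlap those of another annotated gene, and whether counting used strand is not given, so such reads cannot be assigned with certainty. For members that passed, the overlapping partners with rows were less abundant. Strump, which overlaps Pgm1, averaged 30.4 CPM, et (Zw) 6.41 CPM, PGRP-LF and CG32040 (UGP) 8.35 and 0.759 CPM, CG3652 (Tps1) 34.2 CPM and Rrp40 (Eno) 22.0 CPM, and none of these partners passed the threshold.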

How the data were processed

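The deposited table holds whole-number read counts, 1 row a gene and 1 column a library (8 columns), which the authors left unnormalized: column totals differ. Per the submitters' processing notes, the build was dm3 and DESeq was used, with no version or role; the sources used here name no aligner, counting program, annotation or strand setting. One row that names no gene (0.0154% to 0.0176% of counts) was left out. CG numbers were matched to RefSeq symbols (Release 6) and to exonic lengths and arms from Release 6 annotations, without coordinates, since the builds differ.

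Counts were filtered with filterByExpr (minimum count 10), scaled with TMM and compared by edgeR 4.0.16 (robust quasi-likelihood, two-sided, no covariates) in R 4.3.3, with Benjamini-Hochberg adjustment over 10525 genes at 0.05. Standard errors were taken as the size of the log2 fold change divided by the root of F. The test was tested on simulated data with planted changes. Alternatives were RLE and upper quartile scaling, DESeq2 1.42.0, no filter, a replicate block, a lowess offset for gene length and leaving out each library. The members, the list of other genes and the marker lists were chosen with earlier results of these data known. All members are named, with every library's value where they passed; of the other genes those past the threshold, or with 1 library over 3 times the next, are named. CG44244 had no row, CG31873 was listed in error and dropped, and sug, ERR, Idh3b, Idh3g, Scsalpha1, ScsbetaA, ScsbetaG, Mpc1, Pdk, Pdp and the ratios were singled out after their values were seen. No sequences are shown. Columns without a sample numbered 0. Tables and plots were made with pandas 2.3.3 and matplotlib 3.10.9 in Python 3.11.15. No 2 libraries were merged, since chi-square values between libraries of a genotype were 10.8 to 37.4 times their degrees of freedom.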

Additional observations from a re-analysis of the deposited data

Results flagged for a closer look

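Among the 80 groups of 4 libraries of the 40 members, 3 held a library far from the others by Dixon's test, where chance flags about 1 group in 20. Hex-A was at 211 CPM in mutant replicate 3 against 208 CPM in each of the other mutants, a gap that is large only beside their very small spread. Pfk was at 178 CPM in control replicate 1 and at 161 to 164 CPM in the other controls, and without that library its call stood. Pgd was at 180.0 CPM in mutant replicate 1 and at 151 to 154 CPM in the other mutants.

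Of the other genes of the pathway list 30 were checked, among them the 27 already picked for 1 library over 3 times the next. Flags for those 27 were therefore largely fixed in advance. In mutant replicate 2, these 27 genes lay far above the other 3 mutants. Among the genes listed under glycolysis these were Hex-t1 (0.513 CPM), Hex-t2 (4.07), Ald2 (2.38), Pglym87 (3.89), CG2964 (2.57), CG7069 (3.19), CG7362 (2.35), CG13334 (0.770) and Gpdh2 (0.916 CPM). Listed under pentose phosphate, storage and pyruvate they were CG5103 (2.53 CPM), CG6262 (7.84) and CG7024 (2.16 CPM). Listed under the citric acid cycle they were CG14740 (4.36 CPM), mAcon2 (3.19), CG32026 (4.65), CG3483 (2.02), CG33791 (14.3), Scsalpha2 (2.38), SdhAL (1.54), SdhBL (4.54), Fum4 (2.27), Fum3 (3.48), CG10748 (0.367) and CG10749 (1.98 CPM). Listed with the cytosolic and malic enzymes they were CG7848 (1.76 CPM), Menl-1 (4.29) and Menl-2 (4.29 CPM), and the last pair have identical counts in all 8 libraries and overlapping exons.

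In the controls 6 flags rest on 1 or 2 counts in a single library where the other controls had 0. These are Hex-t1 (0.0451 CPM), CG14740 (0.0903), mAcon2 (0.0451) and SdhAL (0.0451 CPM) in control replicate 2, and Hex-t2 (0.0516) and CG5103 (0.0516 CPM) in control replicate 4.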

How the results depend on the processing

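No member past the threshold changed direction in the alternatives run, and 4 of the 15 (Zw, UGP, Pgm1 and kdn) kept their call in all 15. Of all genes, 890 were higher and 1173 lower; with upper quartile scaling 1499 were higher and 872 lower, and with the length offset 762 were lower. With 1 library left out, 604 to 760 genes were higher and 872 to 986 lower. Without both control replicate 1 and mutant replicate 1, 623 genes were higher and 786 lower. Without the filter on low counts, 780 genes were higher and 1027 lower. Members higher numbered 10, and 3 to 11 with 1 library left out. Members lower numbered 5, but 3 with upper quartile scaling, 3 without the filter on low counts, 2 without both control replicate 1 and mutant replicate 1, and 3 to 5 with 1 library left out. Without the filter the calls lost were those of Hex-C (adjusted p 0.0593), Pfk (0.0505), Eno (0.0543), mAcon1 (0.0522) and Idh3a (0.0595, edgeR). Of the other pathway genes, 2 were higher and 1 lower; 5 were higher and 3 lower with the replicate block, 2 were lower with DESeq2, 3 with the length offset, 2 without both replicates 1, and with 1 library left out 2 to 3 were higher and 1 to 3 lower. The cause of these differences was not tested. Correlations of deviations were -0.097 to 0.21 (the highest for replicate 1) between libraries of equal number. Between libraries of unequal number they were -0.2 to 0.23. Because the 2 ranges overlap and the equal numbers are few, these values cannot decide whether the numbers pair the libraries. With the replicate block, 10 members were higher and 4 lower, and 13 of the 15 calls were kept, Hex-C (0.0961) and mAcon1 (0.0503) being lost. Of all genes tested, 9.63% were higher and 13.2% lower with the block. The members' median log2 fold change stayed between -0.01 and 0.07. The 0.07 came with upper quartile scaling, where the median over all genes tested was 0.06, against 0.01 with TMM scaling. The median standard error of the members, 0.06 on the log2 scale, sets how small a change could be detected.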
